A study of Mus musculus with 8 samples.

Results

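The regions described are the stretches of open liver chromatin that lie nearest to 10 genes: Creb3l3 and the integrated stress response genes Atf3, Atf4, Atf5, Ddit3, Trib3, Asns, Chac1, Sesn2 and Psat1. Each consensus region, that is, each stretch covered by a peak in at least 1 library, was given to the mm10 protein-coding gene whose span lay closest within 100 kb, at distance 0 where they overlapped. This left 28 of 49587 consensus regions, belonging to 9 of the 10 genes; no region had Atf4 as its nearest gene. The assay was ATAC-seq, in which a transposase cuts accessible DNA and the cut sites pile up as peaks. The livers came from male C57BL/6 mice aged 9 weeks, all fasted for 24 h from 3 pm, and were flash-frozen. The 4 genotypes, with 2 libraries each, were wild type, Cpt2 L-/- (loss of Cpt2 in the liver), Ppara -/-, and Cpt2 L-/- ; Ppara -/-, in which the Ppara loss is described as whole-body. The double knockout carries both losses, and Cpt2 loss is liver-directed; the driver of its deletion is not given in the sources used here. CPT2 is a mitochondrial enzyme without which long-chain fatty acids cannot be burned there; PPARalpha is a nuclear receptor that senses fatty acids and drives the fasting programme of the liver. No label says whether the 2 libraries of a genotype came from separate mice, so the spread between them may be technical.

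In the integrated stress response, kinases that sense amino acid shortage, unfolded proteins, haem shortage or viral RNA phosphorylate the translation factor eIF2alpha, which slows general protein synthesis while ATF4 protein is made. ATF4 pairs with C/EBP and other leucine-zipper proteins, binds C/EBP-ATF response elements and turns on genes for amino acid synthesis and transport, further transcription factors and feedback inhibitors. CREB3L3, also called CREBH, is a related factor of liver and gut that is held in the endoplasmic reticulum membrane until proteases release it, and in the fasted liver it works with PPARalpha on genes such as Fgf21.

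Promoter sequence is shown for the members whose start regions carry such an element or differed in rank between genotypes. All are RefSeq sequence of GRCm38.p6, the assembly of mm10, written 5′ to 3′ on the strand of the gene, and each run ends on the base before the start site. In the first 3, the capitals mark the match to TGATGNAA, the C/EBP-ATF response element, on either strand. They belong to Asns (chr6:7693210-7693459, minus strand), Chac1 (chr2:119350992-119351241, plus strand) and Atf3 (chr1:191183334-191183583, minus strand).
Asns: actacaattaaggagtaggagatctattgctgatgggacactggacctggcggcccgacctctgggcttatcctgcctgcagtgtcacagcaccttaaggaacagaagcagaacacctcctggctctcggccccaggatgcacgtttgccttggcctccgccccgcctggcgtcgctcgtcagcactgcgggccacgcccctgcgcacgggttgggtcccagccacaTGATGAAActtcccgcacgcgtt
Chac1: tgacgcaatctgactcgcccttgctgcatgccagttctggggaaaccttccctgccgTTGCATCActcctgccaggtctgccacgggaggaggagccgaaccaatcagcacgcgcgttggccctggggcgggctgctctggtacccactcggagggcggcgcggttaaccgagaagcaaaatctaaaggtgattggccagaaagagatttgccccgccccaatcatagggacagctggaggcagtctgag
Atf3: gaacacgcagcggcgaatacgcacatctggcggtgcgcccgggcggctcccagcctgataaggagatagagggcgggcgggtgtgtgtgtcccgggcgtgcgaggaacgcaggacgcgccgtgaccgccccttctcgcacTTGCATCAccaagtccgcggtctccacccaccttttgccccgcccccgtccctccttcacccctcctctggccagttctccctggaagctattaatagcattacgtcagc
A Trib3 match lies just past the start site, and it is shown with 10 flanking bases on each side (match at chr2:152344039-152344046, minus strand, in capitals).
Trib3: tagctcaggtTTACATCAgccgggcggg
In the next pair no searched motif was found, and the capitals instead mark the median peak summit of the 8 libraries with 10 bases on either side. They belong to Creb3l3 (chr10:81092592-81092841, minus strand) and Ddit3 (chr10:127290543-127290792, plus strand). At Ddit3 the summits were scattered, from −191 to 212 bp of the start site, and no library had its summit within the capitals.
Creb3l3: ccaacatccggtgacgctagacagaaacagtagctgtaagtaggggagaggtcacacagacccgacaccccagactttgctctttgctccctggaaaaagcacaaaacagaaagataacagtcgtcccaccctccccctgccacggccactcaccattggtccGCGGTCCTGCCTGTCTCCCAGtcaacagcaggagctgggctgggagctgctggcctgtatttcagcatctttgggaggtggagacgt
Ddit3: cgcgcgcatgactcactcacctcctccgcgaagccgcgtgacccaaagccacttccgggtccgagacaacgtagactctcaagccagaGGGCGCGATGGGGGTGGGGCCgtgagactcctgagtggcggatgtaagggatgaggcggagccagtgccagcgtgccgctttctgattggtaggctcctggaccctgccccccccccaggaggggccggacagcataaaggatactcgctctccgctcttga

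The element begins 23 bases upstream of the Asns start site, 110 upstream at Atf3, 193 upstream at Chac1, and at base 15 of the Trib3 transcript. Windows of 250 bases before to 50 after each annotated start site were searched on both strands, and the 10 genes have 13 such windows. TGATGNAA was present in 4 of the 13 member windows and in 3.97% of the 32851 windows of the genome table. The palindromic cAMP response element TGACGTCA was in 1.79% of all windows and in 0 of the 13. A direct repeat bound by PPAR, searched as 2 copies of AGGTCA separated by 1 base, was in 0.0396% of all windows and 0 of the 13. The endoplasmic reticulum stress element, searched as CCAAT and CCACG separated by 9 bases, was in 0.119% of all windows and 0 of the 13. A match is only a run of letters, and a window without one says nothing of the factor. All 4 matches fell inside the consensus region that spans the start site of their gene. The share of matches genome-wide that lie in a region was not computed, so nothing is read from this.

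Depth as a read total is not in the files. The lists held 28733 and 36141 peaks in wild type, 39296 and 35908 in Cpt2 knockout, 20340 and 18283 in Ppara knockout, and 22715 and 18132 in double knockout. The fold, which is the authors' ratio of the pileup at a peak's summit to its local background, had a median of 6.56 to 7.46 per list with Ppara intact and of 5.65 to 6.08 without it. Lists were shorter and folds lower without Ppara over the whole genome, so member counts are set beside shares over all regions. Numbers written into the peak names were 441 to 446 in both wild type lists and the first Cpt2 knockout list. The second Cpt2 knockout list had 4717, and the Ppara-null lists 6831 to 6834. Whatever they mark cannot be told apart from Ppara status, and it also differs between the 2 Cpt2 knockout libraries. Start sites of hepatocyte markers lay within 1 kb of a region for 4 of 5 genes in each Ppara-intact library and 2 to 3 of 5 in each Ppara-null library, with Ttr at none. Stellate cell markers had 1 to 3 of 4 with Ppara and 0 of 4 without, cholangiocyte markers 1 of 4 and 0 to 1 of 4, endothelial markers 0 to 1 of 4 on both sides, and Kupffer cell and lymphocyte markers 0 of 4; the part of these in the results was not tested. In whole liver, fewer cells of a type with open chromatin and less open chromatin per cell cannot be told apart.

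Of the 28 regions, 11 (39.3%) were called in all 8 libraries, against 22.7% of all regions, and 4 (14.3%) were called in 1 library alone, against 23.0%. Of the 28, 16 overlapped their gene and 12 lay outside it. A start site lay in 9 of the 28, which gave each of the 9 genes with any region 1 region at a start. Of these 9, 5 were called in all 8 libraries, and of the other 19 member regions 6 were. Median length was 462 bp, against 381 bp for all regions, and the 11 regions called everywhere had a median of 597 bp against 373 bp for the rest.

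Fewer regions were called without Ppara. Wild type libraries called 22 and 22 of the 28 regions, Cpt2 knockout 25 and 26, Ppara knockout 17 and 14, and double knockout 20 and 18. Every Ppara-null library lay below every Ppara-intact one. The share called averaged 84.8% ± 7.36 (SD, n = 4) with Ppara and 61.6% ± 8.93 (SD, n = 4) without, a change of −23.2 percentage points, while the other 49559 regions went from 69.4% ± 8.87 to 38.8% ± 4.26, a change of −30.6. Between libraries lacking and holding Ppara, 15 member regions had fewer calls without it, 13 had as many and 0 had more. Over all other regions the shares were 66.9% fewer, 25.8% equal and 7.29% more. By Cpt2 status the member share went from 67.0% ± 14.1 to 79.5% ± 13.8 (SD, n = 4 each), and that of the other regions from 51.0% to 57.3%; these SDs hold the difference by Ppara status. Within each Ppara status both Cpt2-null libraries called more member regions than both Cpt2-intact ones, with 25 and 26 against 22 and 22, and 20 and 18 against 17 and 14. The shares of the other regions overlapped within both, at 77.7% and 71.3% against 56.8% and 71.8%, and at 44.5% and 35.5% against 39.8% and 35.6%. In the equal-number lists the counts were 17 and 18 against 17 and 17 with Ppara, and 18 and 18 against 16 and 13 without. With all peaks, the counts of 25 and 26 include regions that entered the consensus only through Cpt2 knockout libraries. Of these, 1 was called in both such libraries (2.69% of all regions), 3 in the second alone (5.11%) and 1 in the first alone (7.22%). The gap with Ppara was thus partly set by how regions entered the consensus, and it was not tested.

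**Figure D1:**
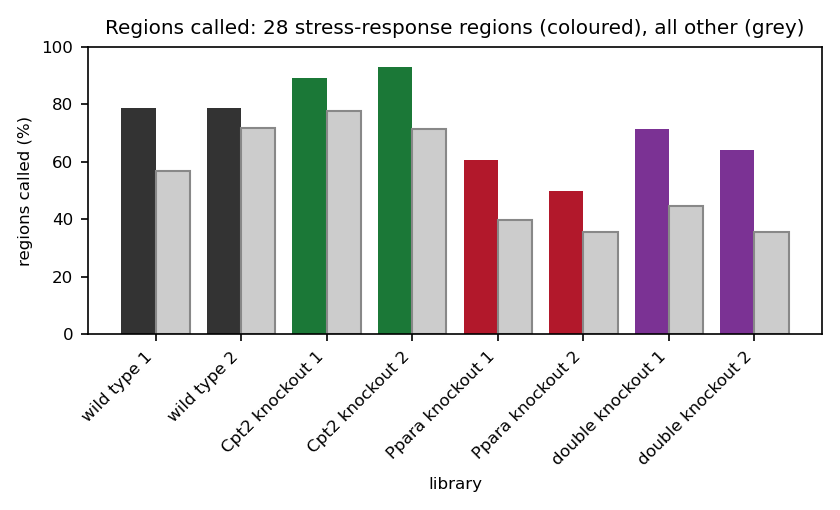
Percent of regions called in each library (y axis) for the 28 regions of the 10 genes (coloured bars, by genotype) and for all other regions (grey bars). The member bars reach 92.9% in the second Cpt2 knockout library, stand above the grey bar of the same library in each case, and are lowest in the 4 libraries without Ppara.

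The difference by Ppara status was smaller at equal list length. When each list was cut to its strongest 18132 peaks by −log10 p, the member share was 61.6% ± 1.79 with Ppara and 58.0% ± 8.44 without (SD, n = 4 each). That was a change of −3.57 points against −0.684 for the other regions. Ppara knockout libraries called 16 and 13 members. Double knockout libraries called 18 and 18, no fewer than any Ppara-intact library. In these equal-number lists, 0 member regions had a peak in each library with Ppara and none without it (0.811% of all regions), and 0 the other way (0.512%). The single regions did not all move together there. Asns at its start was called in 1 of 4 libraries with Ppara and 4 of 4 without, and the Trib3 start in 0 of 4 and 3 of 4. By contrast, Atf5 at its internal start was called in 4 of 4 and 1 of 4. A surplus of at least 3 libraries without Ppara was seen at these 2 members and at 2.18% of all regions, and one with Ppara at 1 member and 3.06% of all.

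With all peaks, 2 member regions had a peak in every library that holds Ppara and in none that lacks it, 1 at Creb3l3 and 1 at Sesn2; of all regions, 6.82% did so, a share close to 2 of 28 (7.14%). The opposite pattern had 0 members (0.0686% of all). By Cpt2 status, 0 members had a peak in each library with Cpt2 and none without it (0.00605% of all), and 0 the reverse (0.0968%).

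**Figure D2:**
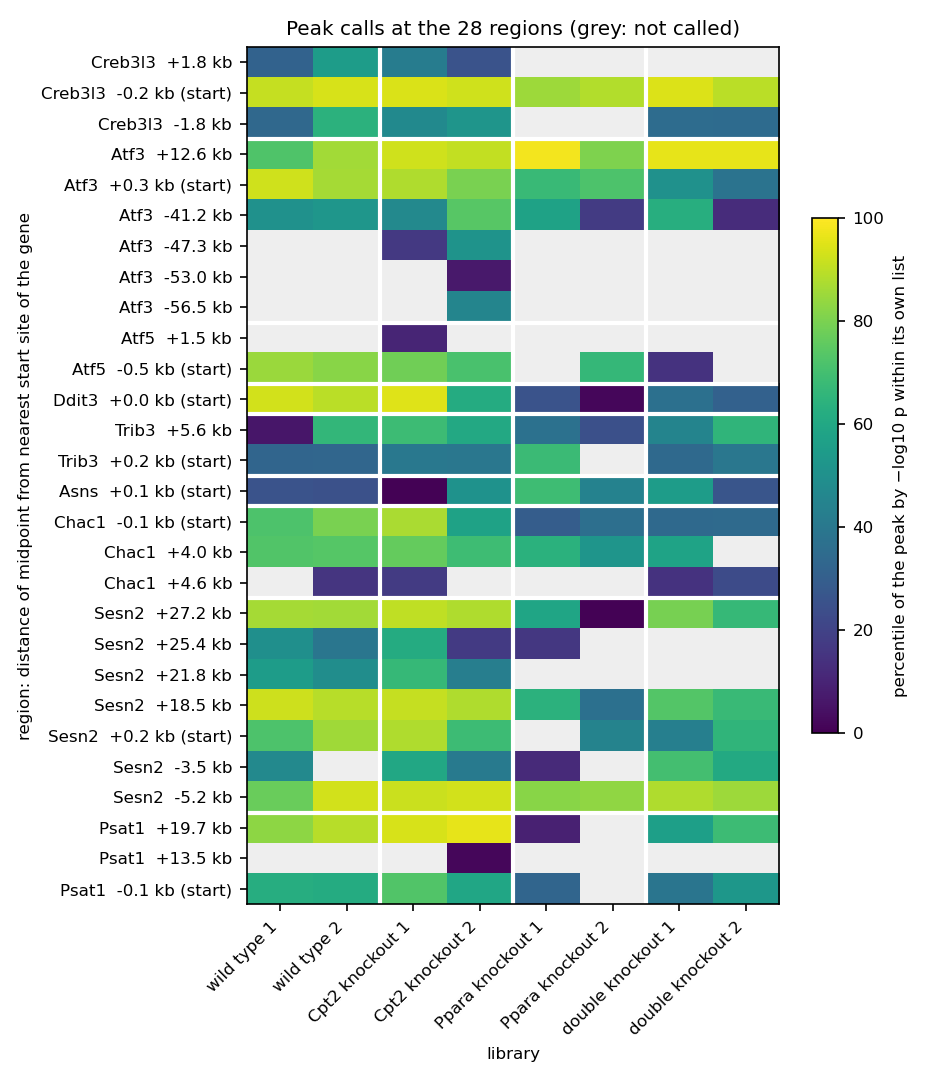
Peak calls at the 28 regions (rows, named by gene and distance in kb of the region's midpoint from a start site) in the 8 libraries (columns). Colour gives the percentile of the peak by −log10 p in its own list and grey marks no call: 11 rows are filled across all 8 libraries, and the grey cells gather in the 4 columns without Ppara, with 60 of the 224 cells grey in all.

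Creb3l3 (chromosome 10, 81084329 to 81098872, minus strand) is the membrane-held hepatocyte factor among these genes, and its 3 regions behaved differently. The region at the internal start site (81092433 to 81093243) was called in all 8 libraries with folds of 6.999 and 8.04 in wild type, 8.37 and 7.39 in Cpt2 knockout, 5.74 and 5.62 in Ppara knockout, and 7.51 and 6.49 in double knockout. Ppara-intact and Ppara-null folds overlapped, since the first double knockout library lay above 2 of the 4 Ppara-intact ones. By −log10 p it was among the strong peaks of every list, at the 85.5 to 94.8 percentile. Its neighbour 1.8 kb into the gene (81090629 to 81091034, 406 bp) was called in the 4 libraries with Ppara, at folds of 3.12 and 4.09 in wild type and 3.52 and 3.05 in Cpt2 knockout, and in none of the others. These are low peaks: by −log10 p, 19.2 to 41.6, they stood at the 25.6 to 55.4 percentile of their lists. In the equal-number lists only the second wild type library kept the call. The third region, at −1.8 kb (81094226 to 81094546), was called in wild type at 3.30 and 4.77, in Cpt2 knockout at 3.84 and 4.10, in double knockout at 3.62 and 3.76, and in neither Ppara knockout library. That combination occurs at 1.3% of all regions. A second annotated start site at 81098872 lay in no region.

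Atf3 (chromosome 1, 191170296 to 191183333, minus strand) encodes a stress-induced leucine-zipper factor that mostly represses. Among its 6 regions the start-site region (191182357 to 191183794, 1438 bp) had folds of 9.21 and 9.28 in wild type, 9.00 and 6.49 in Cpt2 knockout, 5.41 and 5.56 in Ppara knockout, and 4.67 and 4.44 in double knockout. The 4 lower folds were those without Ppara, with no overlap; among the 11 members called in every library, folds were higher in all Ppara-intact libraries than in all Ppara-null libraries at 6, against 60.0% of all such regions, and the reverse held at 0 (0.222% of all). Near the 3' end of the gene (191170454 to 191171019) folds were larger, at 10.2 and 15.0 in wild type, 15.6 and 12.8 in Cpt2 knockout, 13.6 and 8.41 in Ppara knockout, and 12.2 and 10.7 in double knockout, and the sides overlapped. A distal region at −41.2 kb, called in all 8 and one of those 6, had folds of 6.42 to 8.04 with Ppara and 4.26 to 6.38 without. One further region, at −47.3 kb (191230463 to 191230835), was called in both Cpt2 knockout libraries alone, at 6.08 and 8.64, and the regions at −53.0 and −56.5 kb were called in the second Cpt2 knockout library alone, at 4.51 and 7.18. The distal regions were placed by nearest gene, which does not show that they act on Atf3.

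Atf5 (chromosome 7, 44812256 to 44816658, minus strand) encodes a factor translated under stress like ATF4 and used in the mitochondrial unfolded protein response. Its region at the internal start site (44815625 to 44816614), which also overlaps Il4i1b and Nup62, was called in wild type at 5.96 and 6.48. It was also called in Cpt2 knockout at 5.42 and 5.02, in the second Ppara knockout library at 4.47 and in the first double knockout library at 3.16. The 2 missing calls fell in 1 library of each Ppara-null genotype. Of the 8 members called in every Ppara-intact library and in 1 to 3 Ppara-null ones, 5 had all Ppara-intact folds above the called Ppara-null folds, this one included, against 54.4% of all such regions. The region inside the gene at +1.5 kb was called in the first Cpt2 knockout library alone, at 2.84. A second annotated start site, at the 5′ end of the gene (44816658), lay in no region.

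Ddit3 (chromosome 10, 127290793 to 127296291, plus strand) encodes CHOP, the factor that links prolonged stress to cell death, and its 1 region (127290410 to 127291163) spans the start and also overlaps Mbd6. Folds were 6.67 and 7.55 in wild type, 8.24 and 4.35 in Cpt2 knockout, 3.46 and 2.68 in Ppara knockout, and 3.39 and 3.501 in double knockout. The second Cpt2 knockout library lay nearer to the Ppara-null libraries than to its pair. The −log10 p of these peaks was 42.1 to 152 with Ppara and 9.79 to 18.4 without; such a gap was found at 8 of the 11 members called everywhere and at 76.4% of all regions called everywhere. Ranked by −log10 p among those regions, Ddit3 overlapped by Ppara status, with the second Cpt2 knockout library at the 15.95 percentile and the second double knockout library at 18.2. Atf4 itself (chromosome 15, 80255184 to 80257545) had no assigned region; apart from its promoter window in the motif search it was not analysed here, and nothing is said of how open its chromatin was.

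**Figure D3:**
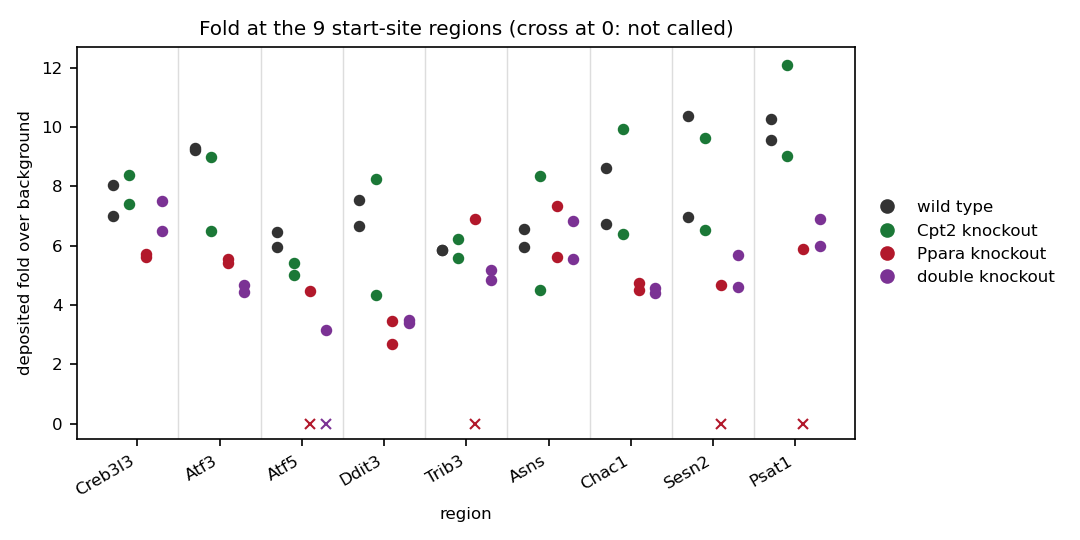
Deposited fold (y axis) of the peak at the start-site region of 9 genes (x axis), 1 point per library, coloured by genotype; crosses at 0 mark no call. Ddit3, Atf3 and Chac1 have their 4 Ppara-null points below all Ppara-intact points, while the points of Asns and Trib3 are mixed.

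The feedback and effector genes were open at their starts in most libraries. Trib3 (chromosome 2, 152337425 to 152344060, minus strand) encodes a pseudokinase that restrains ATF4 and CHOP. Its start-site region (152343458 to 152344225) was called in wild type at 5.86 and 5.84, in Cpt2 knockout at 6.21 and 5.59, in the first Ppara knockout library at 6.90, and in double knockout at 4.84 and 5.18. The highest fold was that of the single Ppara knockout library with a call, and the other Ppara knockout library had none. Its other region, 5.6 kb into the gene, was called in all 8, at 3.73 and 7.89 in wild type, 7.90 and 6.72 in Cpt2 knockout, 5.05 and 4.45 in Ppara knockout, and 5.04 and 6.22 in double knockout; the lowest value was a wild type one.

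Chac1 (chromosome 2, 119351242 to 119354326, plus strand) encodes an enzyme that degrades glutathione. At its start (119350843 to 119351404), folds were 6.73 and 8.61 in wild type, 9.93 and 6.38 in Cpt2 knockout, 4.52 and 4.73 in Ppara knockout, and 4.42 and 4.56 in double knockout, with no overlap by Ppara status. The region 4.0 kb on was called in 7 libraries, at 6.51 to 7.76 with Ppara. Without it, folds were 5.90 and 4.98 in Ppara knockout and 5.30 in the first double knockout library, and the second had no call. It is one of the 5 partly called members without overlap, against 54.4% of all such regions. The region at 4.6 kb was called in the second wild type, the first Cpt2 knockout and both double knockout libraries, at 3.61, 3.65, 3.80 and 4.17.

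Sesn2 (chromosome 4, 132492804 to 132510456, minus strand), encoding a leucine-binding brake on mTORC1, had the most regions, 7. At its start (132509613 to 132510821) folds were 6.95 and 10.4 in wild type, 9.63 and 6.51 in Cpt2 knockout, 4.67 in the second Ppara knockout library, and 4.59 and 5.67 in double knockout. As at most of the 8 partly called members, the called Ppara-null values lay below the Ppara-intact ones, and the first Ppara knockout library had no call. Past the 3′ end of the gene lay 4 regions. The one at 21.8 kb (132488528 to 132488883) was the second member called only with Ppara, at 5.10 and 5.35 in wild type and 6.05 and 4.39 in Cpt2 knockout. In the equal-number lists it was called in the first library of each of these genotypes. The regions at 27.2 and 18.5 kb were called in all 8: the former (132482885 to 132483575) at 11.4 and 12.5 in wild type, 12.4 and 10.8 in Cpt2 knockout, 6.77 and 4.30 in Ppara knockout, and 8.99 and 6.94 in double knockout. At 18.5 kb (132491669 to 132492265) folds were 8.76 to 11.1 with Ppara and 4.77 to 6.67 without. The region at 25.4 kb was called in 5 libraries: the 4 with Ppara, at 3.72 to 6.03, and the first Ppara knockout library, at 4.76. Upstream, the region at −5.2 kb was called in all 8, at 6.78 to 13.0, and the one at −3.5 kb in 6, with 1 call missing on each of the wild type and Ppara knockout genotypes.

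The amino acid synthesis enzymes differed from each other. Asns (chromosome 6, 7675165 to 7693209, minus strand), asparagine synthetase, had 1 region (7692836 to 7693386), called in all 8 at 5.94 and 6.56 in wild type, 4.49 and 8.33 in Cpt2 knockout, 7.35 and 5.62 in Ppara knockout, and 6.83 and 5.54 in double knockout. The lowest and the highest fold were the 2 Cpt2 knockout libraries, and the sides overlapped. Psat1 (chromosome 19, 15905123 to 15925059, minus strand), an aminotransferase of serine synthesis, had its start-site region (15924749 to 15925617) called in 7 libraries, at 9.57 and 10.3 in wild type, 12.1 and 9.02 in Cpt2 knockout, 5.87 in the first Ppara knockout library, and 5.99 and 6.91 in double knockout. The region at the 3′ end (15904677 to 15905144) was called in the same 7 libraries, at 11.9 and 15.9 in wild type, 17.4 and 17.1 in Cpt2 knockout, 5.10 in the first Ppara knockout library, and 7.42 and 7.76 in double knockout. Both are among the 5 partly called members without overlap, the usual case over all such regions. The second Ppara knockout library had no call at any Psat1 region. This set of 7 libraries, missing that library alone, was shared by 3 members (both Psat1 regions and the Trib3 start) and by 3.2% of all regions. A further Psat1 region at 13.5 kb was called in the second Cpt2 knockout library alone, at 4.71.

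Ranks over the same regions are not set by list length. The 11258 regions called in all 8 libraries were ranked in each library by fold, as percentiles. All Ppara-intact percentiles lay above all Ppara-null ones at 1 of the 11 members (5.36% of all), the start of Ddit3, and all lay below at 1 (6.68%), the start of Creb3l3. Ddit3 stood at the 17.9 and 13.1 percentile in wild type, 19.65 and 1.17 in Cpt2 knockout, 0.497 and 0.0355 in Ppara knockout, and 0.311 and 0.524 in double knockout. Creb3l3 stood at 21.5 and 17.0 in wild type, 20.9 and 20.7 in Cpt2 knockout, 26.6 and 34.2 in Ppara knockout, and 51.1 and 46.5 in double knockout. The double knockout libraries were the highest. Both counts are 1 of 11 beside shares of all regions of a like size, and both were 0 with a −log10 q of at least 20 and with 50% cover. At 50% cover neither start was called in all 8 libraries, so neither was ranked. The second Ppara knockout library had a 336 bp peak in the 811 bp Creb3l3 region. The first had a 225 bp peak in the 754 bp Ddit3 region. At the −log10 q threshold Ddit3 was not ranked either, its −log10 p without Ppara being 9.79 to 18.4. For Ddit3 in both settings, and for Creb3l3 at 50% cover, these 0 counts do not show overlapping ranks. The Creb3l3 start, with −log10 p of 41.8 to 144, stayed in the ranked set at the −log10 q threshold. For it the 0 there means that its fold ranks overlapped by Ppara status. By −log10 p the Creb3l3 percentiles overlapped, at 77.8 to 80.6 with Ppara and 74.2 to 89.7 without. By Cpt2 status, 0 members had all intact percentiles above the others (1.59% of all) and 0 below (1.29%). When the regions were ranked by −log10 p the non-overlapping members were other ones, Sesn2 at 18.5 kb above and Asns below. The share of all 11258 regions with such a gap by −log10 p was not computed, so nothing is read from these 2 members.

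**Figure D4:**
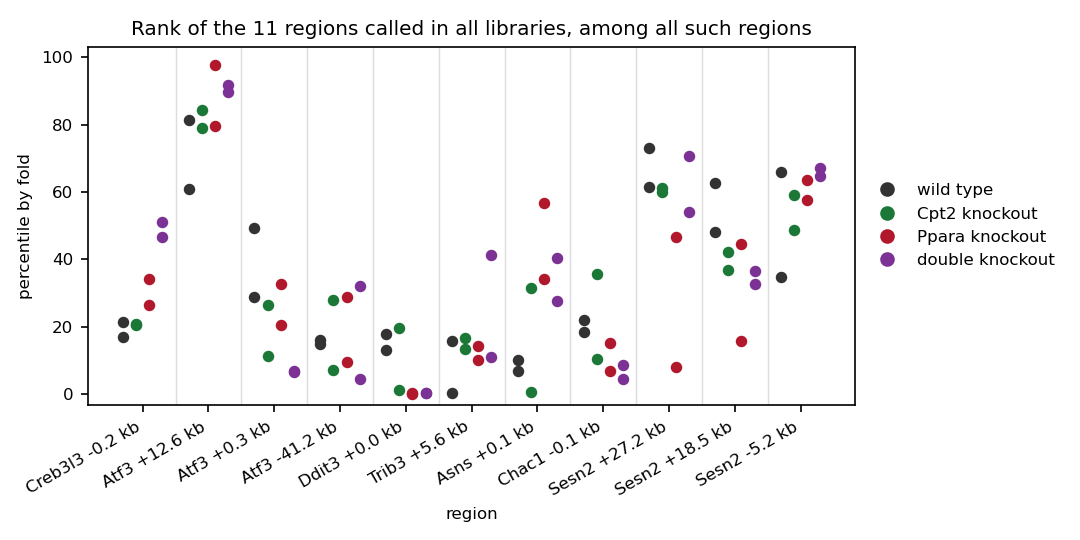
Percentile by fold among the 11258 regions called in all 8 libraries (y axis) for the 11 member regions (x axis), 1 point per library, coloured by genotype. The Ddit3 points lie at 0.0355 to 0.524 without Ppara and at 1.17 to 19.65 with it. The Creb3l3 points without Ppara, 26.6 to 51.1, lie above those with it, 17.0 to 21.5.

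Single genotypes were then set against each other, calling a region changed when both libraries of one held it and neither of the other did. The pairs share libraries, with each genotype in 2 of them. In Cpt2 knockout against wild type, 1 member was called in Cpt2 knockout alone (3.63% of all), the Atf3 region at −47.3 kb, and 0 in wild type alone (0.512%). In Ppara knockout against wild type, 0 were called in the knockout alone (0.46%) and 3 in wild type alone (13.6%), 2 at Creb3l3 and 1 at Sesn2. In the equal-number lists this became 1 (Asns, 2.38% of all) and 1 (Psat1, 3.44%), so the loss was no longer one-sided. In double knockout against Cpt2 knockout, 0 were called in the double knockout alone (0.597%) and 4 in Cpt2 knockout alone (20.4%), namely Creb3l3 at 1.8 kb, Atf3 at −47.3 kb, and Sesn2 at 25.4 and 21.8 kb. In the equal-number lists this too became 1 (Trib3, 2.61%) and 1 (Atf5, 2.99%). In double knockout against Ppara knockout, 2 were called in the double knockout alone (2.33%), Creb3l3 at −1.8 kb and Chac1 at 4.6 kb, and 0 in Ppara knockout alone (1.45%). The equal-number lists also gave 2 and 0, but with Psat1 at its 3′ end in place of the Chac1 region. The share of all regions was not computed for this pair there. With all peaks, the members of the other 3 pairs were called at or below the share of all regions. The 2 of 28 (7.14%) in the last pair stood above it, and no test was made of either.

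The summits, where the pileup is highest, lay close to the start sites. At Creb3l3 the median summit of 8 libraries was −77.0 bp from the internal start, between −91 and −41. At Atf3 it was −173 bp, with libraries from −192 to 786, and at Ddit3 −151.5 bp, from −191 to 212; the strongest peak was not at one place in each library. Asns (median 31.0 bp, −3 to 54) and Trib3 (31.0 bp, 2 to 87) had theirs just inside the gene. Chac1 (−132.5), Sesn2 (−133), Atf5 (−172.5) and Psat1 (−25.0) had theirs upstream. The 4 elements began 23 bases upstream at Asns, at base 15 at Trib3, 110 upstream at Atf3 and 193 upstream at Chac1, beside the median summits given above.

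**Figure D5:**
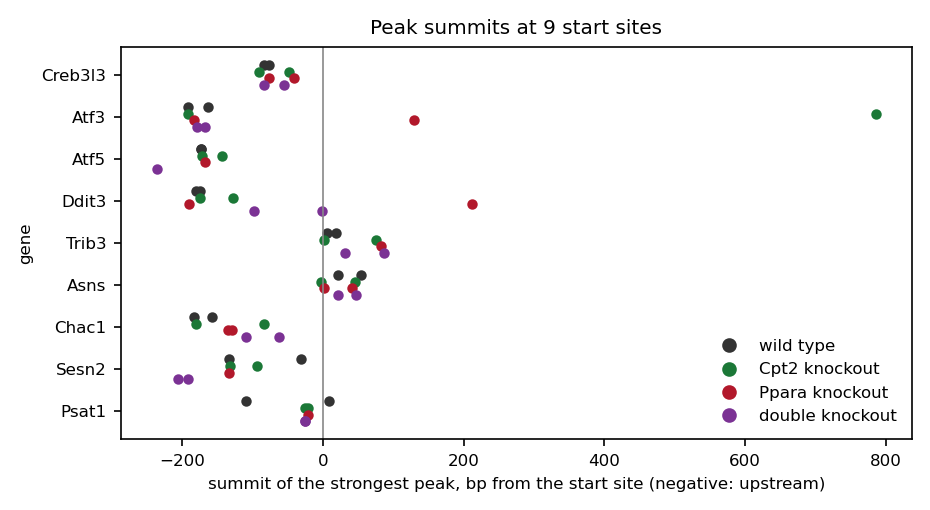
Position of the strongest peak's summit relative to the start site (x axis, bp, negative upstream) at the 9 genes with a region at a start site (y axis), 1 point per library, coloured by genotype. Creb3l3 points span −91 to −41, and single Atf3 and Ddit3 points lie at 786 and 212.

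The rest of the pathway was read from 4 lists, beside all regions, of which 6.82% were called only with Ppara and 0.0686% only without, and the regions outside the members, of which 69.4% were called with Ppara and 38.8% without. Of the 7 genes for eIF2alpha kinases, eIF2alpha and its phosphatase subunits, 6 had 12 regions, 6 of them called in all 8 libraries; 93.8% of region and library pairs were called with Ppara and 66.7% without. One region, at Ppp1r15b (a subunit that steers the phosphatase to eIF2alpha), was called only with Ppara, at folds of 3.89, 5.33, 3.63 and 5.44 in wild type and Cpt2 knockout. Of 26 other ATF4 targets and partners, 23 had 87 regions with 11 called only with Ppara (12.6%), and the share called went from 74.7% to 39.1%. These 11, counted with all peaks, lay nearest to 7 genes. Cebpb, a leucine-zipper partner of ATF4, had 4 regions, all outside the gene, 3730 to 32101 bp away. Others were Cth, an enzyme of cysteine synthesis, the amino acid transporters Slc7a5 and Slc38a2, and the stress-secreted hormones Fgf21 and Gdf15. The Slc38a2 region lay 18735 bp from its gene. Placement by nearest gene does not show which gene a region acts on. Fgf21 had 2 such regions, both outside the gene. The one 3968 bp away had folds of 8.89, 8.75, 9.32 and 4.12, and the one 790 bp away had 6.55, 8.57, 8.36 and 4.85. Gdf15 had 1, at 3.58, 3.77, 4.45 and 2.85. Of 12 genes of the endoplasmic reticulum unfolded protein response, 11 had 47 regions, with 3 called only with Ppara (6.38%), at Herpud1 and at the stress sensor Ern1. Of 13 genes of the CREB3 family, its proteases and CREB3L3 targets, 13 had 55 regions. In this list 3 were called only with Ppara (5.45%), nearest to Creb3l1, Crp (12529 bp away) and Apoc2. The list also held 1 region called only without Ppara, 704 bp from Hamp (the iron hormone hepcidin). Its folds were 3.18 and 3.81 in Ppara knockout and 4.36 and 4.09 in double knockout. In none of the 4 lists was a region separated by Cpt2 status.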

How the data were processed

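ATAC-seq peak lists of 8 libraries and a consensus position table, both on mm10, were used as the authors deposited them. MACS2 2.1.0 and BWA are named in the submitters' processing notes, without roles. Deposited fold (a ratio) and −log10 p per peak come from columns 7 and 8; the deposited score and −log10 q were used for checks and a threshold. Counts or signal per region are not in these files. A region was called where a peak overlapped it by 1 bp; of several peaks the one with the highest value was used. Python 3.11.15, NumPy 2.4.6, pandas 2.3.3 and matplotlib 3.10.9 were used, with 21900 protein-coding genes of the RefSeq table. No p-value was computed: with calls only, members were read against all regions. Ppara-intact means wild type and Cpt2 knockout, Ppara-null the other 2 genotypes. Members and lists were chosen with earlier results of these data known. Named genes are all 10 members, and in each list up to 6 genes with a region separated by Ppara or Cpt2 status, those of highest −log10 p percentile. Alternatives were equal-number lists, −log10 q of 20, 50% cover, a 10 kb limit, all annotated genes competing, ranking by −log10 p, and leaving out each library. Counting was tested on simulated data. Peak numbers ran on without a gap at all 60 positions where a member was not called.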

Additional observations from a re-analysis of the deposited data

Results flagged for a closer look

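One of the 11 member regions called in every library, Sesn2 at 132482885 on chromosome 4, had percentiles by fold that moved in opposite directions with Cpt2 loss depending on Ppara. Its fold percentile among shared regions changed by −6.64 from wild type to Cpt2 knockout and by 35.0 from Ppara knockout to double knockout, a difference of −41.6. By library the percentiles were 73.0 and 61.5 in wild type, 60.1 and 61.2 in Cpt2 knockout, 46.6 and 8.15 in Ppara knockout, and 70.6 and 54.1 in double knockout. Both Cpt2 knockout values lay below both wild type ones, and both double knockout values lay above both Ppara knockout ones, but the first gap was only that from 61.2 to 61.5. Ranked by −log10 p the opposite direction was absent, with 67.1 and 58.5 in wild type, 68.5 and 64.4 in Cpt2 knockout, 34.95 and 0.195 in Ppara knockout, and 61.7 and 53.1 in double knockout. The difference was not tested, and 691 of the 11258 shared regions (6.14%) did the same.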

How the results depend on the processing

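Counts with all peaks depended on the list length and threshold. With equal-number lists, regions called only with Ppara fell from 2 to 0, the change in the share called went from −23.2 to −3.57 points, Cpt2 knockout against wild type from 1 to 0, and double knockout against Cpt2 knockout from 4 to 2; there, and in Ppara knockout against wild type, losses alone became 1 gained and 1 lost. With −log10 q of at least 20 these were 4, −41.1, 0 and 8, Ppara knockout against wild type went from 3 to 7, and non-overlapping ranks from 2 to 0. With 50% cover the share change was −41.1, Ppara knockout against wild type 7, double knockout against Cpt2 knockout 7, and non-overlapping ranks 0. The Ddit3 start was outside the ranked set in both settings, and the Creb3l3 start with 50% cover. A 10 kb limit left 24 member regions and all annotated genes competing left 19; Cpt2 knockout against wild type was then 0 in both, and with all genes competing regions called only with Ppara were 1 and double knockout against Cpt2 knockout 1. Leaving out each library gave 1 to 4 for Cpt2 knockout against wild type (4 without the first Cpt2 knockout library), 3 to 7 for Ppara knockout against wild type (7 without the first Ppara knockout library), 4 to 8 for double knockout against Cpt2 knockout (8 without the first Cpt2 knockout library), 2 to 6 for double knockout against Ppara knockout (6 without the first Ppara knockout library), 2 to 5 for non-overlapping ranks (5 without the second Ppara knockout library) and 2 to 3 for regions called only with Ppara. The cause of these shifts was not tested. No member was called only without Ppara, and none was separated by Cpt2 status, under any alternative run. No paired analysis was possible because the results come from no test, and no label ties libraries of the same number to a shared animal or day. The alternatives for single regions were chosen after seeing the data.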
